A study of Arabidopsis thaliana with 8 samples.

Results

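The B-box genes BBX26 to BBX32 of Arabidopsis thaliana were examined for binding of the bZIP transcription factor GBF2. These 7 genes code for the proteins of the family that have a single B-box and no CCT domain, and they were chosen by gene identifier with the peak lists already known, so that the presence of a peak at a gene was in view when the group was drawn up. The presence, score and position of their peaks are therefore given as a description and carry no test. Peaks were assigned to 3 of the 7 genes. All of them had a peak in the list from tunicamycin-treated seedlings, where 2.27% of 27444 protein-coding genes had one. In all, 780 gene identifiers had a peak in any of the 3 deposited lists, and some of these are not protein-coding genes.

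The plants were whole seedlings of the Col-0 accession, in which a fusion of GBF2 to the fluorescent protein Ypet was driven by the GBF2 promoter (pGBF2:GBF2-Ypet). This genotype was common to all 8 libraries. At 5 days of age the seedlings were moved for 6 h into liquid with 0.5 µg/mL tunicamycin, which blocks N-glycosylation and so causes stress of the endoplasmic reticulum, or into DMSO alone as the mock treatment. Each treatment gave 2 libraries of chromatin precipitated with an antibody against GFP and 2 input libraries without antibody. The authors deposited a DMSO list of 320 peaks, a tunicamycin list of 767 peaks and a list of 502 peaks that they named specific to tunicamycin (the tunicamycin-specific list). Of these 502 peaks 29 do overlap a DMSO peak, so a place in that list does not by itself mean that DMSO seedlings had no peak at the site. Values per library are in none of them, which leaves the read depth unknown, and no difference below could be set against replicate error.

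B-box proteins carry a zinc-binding fold through which they contact other proteins, and many act in the response of seedlings to light. In that response the bZIP factor HY5 promotes the form that seedlings take in light, and the ubiquitin ligase COP1 marks HY5 for breakdown in darkness. Several single B-box proteins act on this pair. BBX28 binds HY5 and reduces its activity on target genes, and BBX29 is a close relative of BBX28. BBX32 represses light responses and binds the B-box protein BBX21. BBX30 and BBX31 are microproteins, also called miP1b and miP1a, that can tie the flowering regulator CONSTANS to the co-repressor TOPLESS. GBF2 and HY5 belong to the same class of factors, which recognise the G-box, a palindromic element with an ACGT core that is frequent in promoters of light-regulated genes.

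GBF2 peaks were assigned to BBX28, BBX27 and BBX29. BBX28 (AT4G27310) had a peak in both treatments. It was the only member with a peak in the DMSO list, and it had the highest score of the 3 members in the tunicamycin list. BBX27 (AT1G68190) and BBX29 (AT5G54470) had peaks in the tunicamycin list and none in the DMSO list. BBX26 (AT1G60250), BBX30 (AT4G15248), BBX31 (AT3G21890) and BBX32 (AT3G21150) had no peak in any list. A peak thus stood at 1 of 7 genes in the DMSO list, where 0.849% of 27444 protein-coding genes had one, and at 3 of 7 in the tunicamycin list, where 2.27% of protein-coding genes had one. The tunicamycin-specific list held 2 of the 7, beside 1.52% of protein-coding genes, and 1 of 7 had a peak in both the DMSO and the tunicamycin list, beside 0.762%. Because the genes were picked with these peaks known, nothing is read from the distance between the counts and the shares.

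The peak at BBX28 was among the strong ones in both lists. In the DMSO list it covered chr4:13674092-13676209 (TAIR10 coordinates throughout), a width of 2118 bp, with a score of 4.23. The score is the authors' value for a peak, and it orders peaks within 1 list. This score took rank 29 of 320, inside the highest 9.06% of the list, whose median score was 2.96. In the tunicamycin list the BBX28 peak covered chr4:13674198-13675601, a width of 1404 bp, with a score of 3.60. It stood at rank 37 of 767, inside the highest 4.82%, where the median was 2.47. The scores of the lists are not on a shown common scale, so 4.23 and 3.60 stand side by side and give no direction of change.

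The authors classed both BBX28 peaks as promoter, within 1 kb. The tunicamycin peak lay wholly within the DMSO peak and made up 66.3% of its length. The DMSO peak reached 106 bp further at the end of lower coordinates and 608 bp further at the other end. BBX28 is on the strand marked 1 (sense) in the files, so the longer extension of the DMSO peak lay in the direction of transcription. The midpoints of the peaks were 251 bp apart. Across all 278 overlapping pairs of peaks the median distance of midpoints was 43.2 bp, and 39 pairs (14.0%) had midpoints more than 200 bp apart. A tunicamycin peak inside its DMSO partner was seen in 71 of these pairs (25.5%), and the DMSO peak was the wider one in 119. BBX28 was thus 1 of the pairs in which the DMSO peak was wider, which held for fewer than 50% of them.

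**Figure D1:**
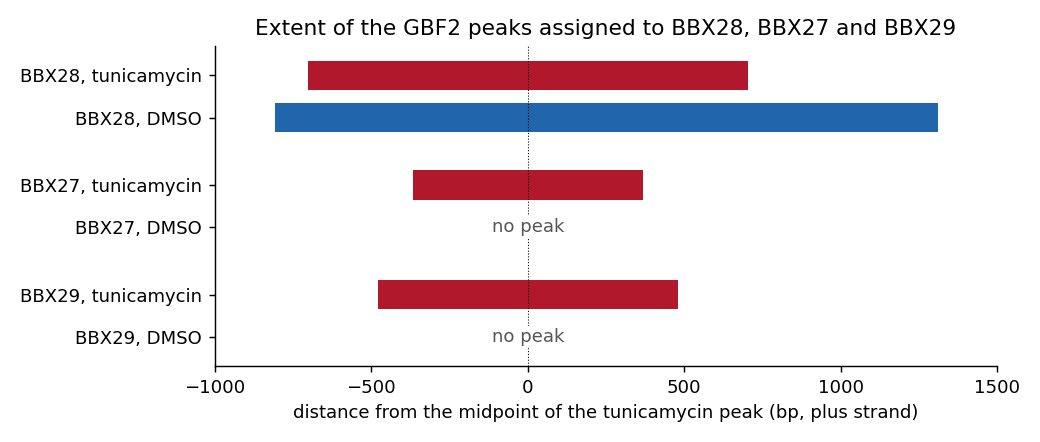
Extent of the peaks assigned to BBX28, BBX27 and BBX29, as bars along the distance in bp from the midpoint of the tunicamycin peak of the same gene (red, tunicamycin list; blue, DMSO list). The DMSO peak of BBX28 (2118 bp) encloses its tunicamycin peak (1404 bp) and reaches 608 bp further to the right, while BBX27 and BBX29 have no DMSO peak.

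BBX27 had a narrow tunicamycin peak with a score in the upper part of the list. It covered chr1:25558794-25559529, with a width of 736 bp and a score of 2.79, at rank 171 of 767 (the highest 22.3%). By width it stood at rank 681, below the lower quartile of the list, which was 786 bp. Of the 490 tunicamycin peaks that no DMSO peak overlapped by 1 bp or more, BBX27 stood at rank 28 by score (the highest 5.71%), where the median score was 2.35. In the authors' tunicamycin-specific list the same peak was at rank 45 of 502. The authors classed it as promoter, within 1 kb.

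BBX29, the close relative of BBX28, had a weaker tunicamycin peak near the middle of the list. It covered chr5:22115364-22116321, with a width of 958 bp and a score of 2.49, against a list median of 2.47. Its rank was 365 of 767 in the tunicamycin list, 145 of 490 among the peaks without a DMSO overlap, and 165 of 502 in the tunicamycin-specific list. Its class was the same, and BBX29 is on the strand marked 2 (antisense). The order of the 3 genes by tunicamycin score was BBX28, BBX27 and BBX29, and with no replicate values the spread around each score is unknown. All member peaks were of the same class, which held 75.9% of the DMSO peaks and 76.3% of the tunicamycin peaks assigned to protein-coding genes.

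**Figure D2:**
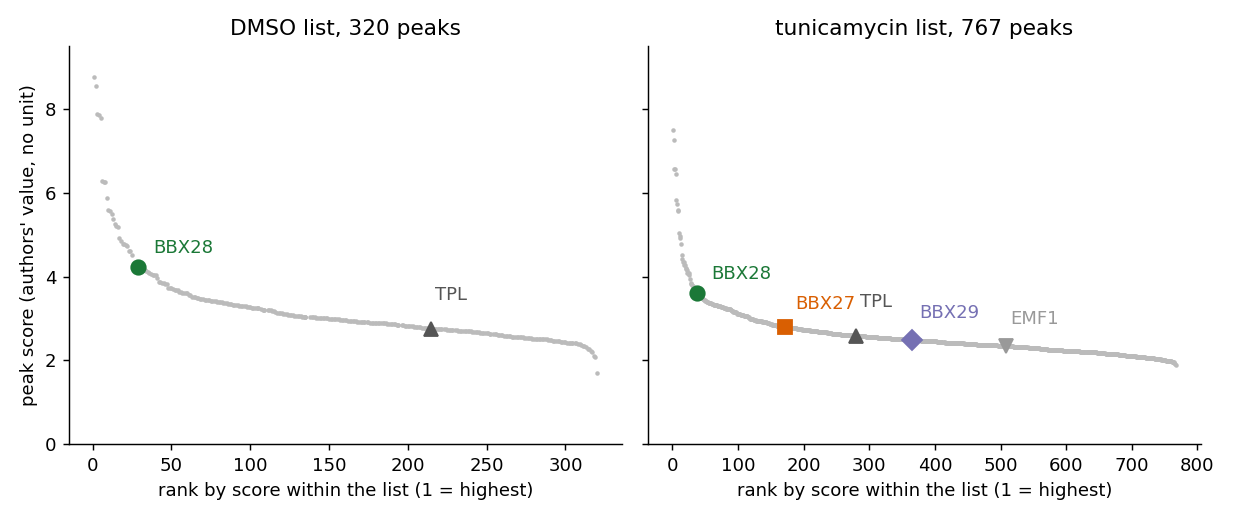
Peak score (authors' value, no unit) against rank within the DMSO list (left, 320 peaks) and the tunicamycin list (right, 767 peaks), with each grey point a peak. BBX28 lies on the steep upper part of both curves (scores 4.23 and 3.60), and BBX27 (2.79) and BBX29 (2.49) lie on the flat part of the tunicamycin curve, with TPL and EMF1 marked for comparison.

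The flat part of the tunicamycin list placed many peaks close to BBX27 and BBX29 in score. BBX27 shared its score with 2 other peaks, at PRR3, a gene of the clock, and at SPHK1, which codes for a sphingosine kinase. The next higher and next lower peaks, at AT1G68440 and AT2G08986, also had scores of 2.79 after rounding. The neighbours of BBX29 were AT2G07880 above and HCF244, a gene for a chloroplast factor of photosystem II assembly, below, both at 2.49. BBX28 stood in a steeper stretch: in the DMSO list it lay between the calreticulin gene CRT1a (4.24) and AT1G69570 (4.16), and in the tunicamycin list between ABCI19 (3.62) and AT3G61826 (3.59).

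**Figure D3:**
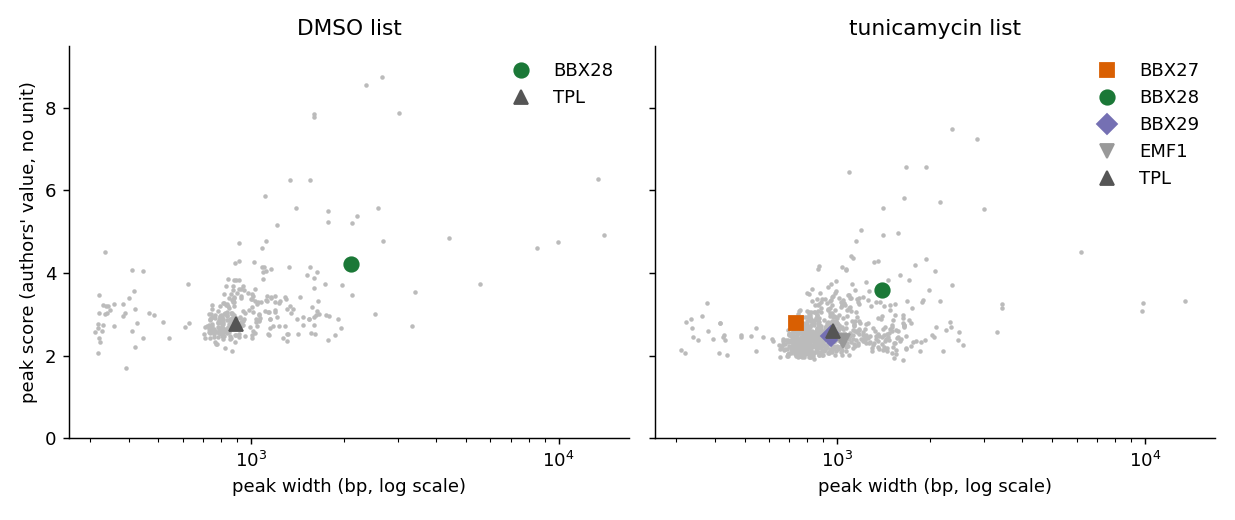
Peak width in bp (log scale) against peak score in the DMSO list (left) and the tunicamycin list (right), with each grey point a peak. BBX28 is wide in both lists (2118 and 1404 bp), whereas BBX27 (736 bp) is narrower than the lower quartile of the tunicamycin list (786 bp) and BBX29 (958 bp) lies above its median (878 bp).

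The absence of BBX27 and BBX29 from the DMSO list was examined in their surroundings. The DMSO peak closest to the BBX27 peak was 97.2 kb away, at AT1G68440 (score 2.54), and the one closest to the BBX29 peak was 34.6 kb away, at AT5G54530 (score 2.56). Across the 490 tunicamycin peaks without a DMSO overlap this distance had a median of 122.3 kb and quartiles of 47.0 and 261.8 kb. No DMSO peak assigned to another gene therefore covered or bordered either site. A peak list holds what passed the authors' threshold, and weaker enrichment at these sites in DMSO would not appear in it. The DMSO list was also the shorter one, and whether it was called from fewer reads is not known.

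Peaks next to the bound members along the chromosome were few, and the genes in this paragraph were looked up after the members' values were seen. In the tunicamycin list the peak to the left of BBX28 was 8.1 kb away, at AT4G27290, with a score of 1.98 and rank 759 of 767. The DMSO list had no peak there, and its next peak to the left was 21.2 kb away at WES1 (2.52), a gene for an enzyme that joins auxin to amino acids. The tunicamycin peak to the left of BBX27 was 49978 bp away, at FKF1 (2.52), which codes for a blue-light receptor of the flowering pathway. To the right of BBX29 a tunicamycin peak lay 18.1 kb away, at DFL1 (2.24), an auxin-conjugating relative of WES1. On the other sides, the closest tunicamycin peaks were at AT4G27875 (2.03) beside BBX28, at AT1G68440 (2.79) beside BBX27 and at AT5G54300 (3.16) beside BBX29. Of these 6 flanking peaks, 4 overlapped no DMSO peak, at AT4G27290, AT4G27875, FKF1 and DFL1, and those at AT1G68440 and AT5G54300 did overlap one. Of all tunicamycin peaks, 63.9% were without such an overlap.

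The 4 genes without a peak included both microprotein genes. BBX30 and BBX31 each lie beside a longer B-box gene in the RefSeq gene table, BBX9 next to BBX30 and BBX10 next to BBX31, and neither of these had a peak. The files give 1 gene per peak, so a site shared by adjacent genes would appear under 1 name. None of the genes directly beside any of the 7 members had a peak in any list, MNS2 beside BBX32 included, which codes for a mannosidase of N-glycan trimming. Counted in protein-coding genes alone, the nearest such gene with a tunicamycin peak was 16 genes from BBX30 (CYP97B3, a cytochrome P450 gene, score 2.36). It was 59 genes from BBX31 (AOX1A, the gene of an alternative oxidase, 4.35), 83 from BBX32 (AT3G20362, 2.91) and 174 from BBX26, on both sides. Genes outside the protein-coding set were passed over. Among them AT1G60910 (2.15) and AT1G61224 (2.19) had tunicamycin peaks. By identifier, both lie closer to BBX26 than the gene counted on its right, AT1G61870. In the DMSO list the distances from BBX30, BBX31, BBX32 and BBX26 were 138, 60, 83 and 174 genes. For BBX31 the DMSO gene was TIC, whose peak lies within the tunicamycin peak assigned to AOX1A, so 59 and 60 differ by gene assignment only.

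**Figure D4:**
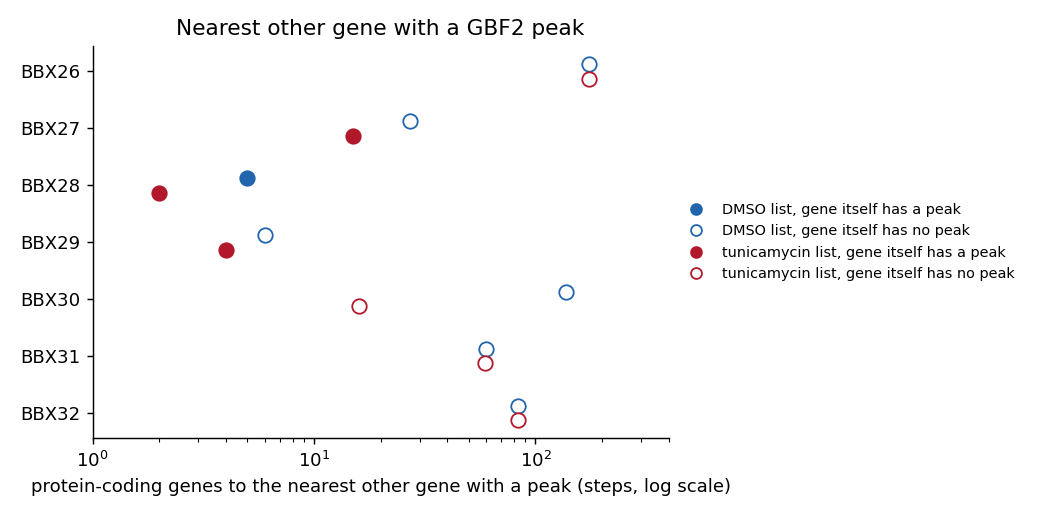
Number of protein-coding genes (log scale) from each of the 7 genes to the nearest other protein-coding gene with a peak. Blue is the DMSO list and red the tunicamycin list, and filled points mark lists in which the gene itself has a peak. BBX28 has another such gene with a tunicamycin peak 2 genes away and BBX29 one 4 genes away. BBX26, BBX31 and BBX32 are 59 or more genes from any protein-coding gene with a peak.

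The rest of the B-box family was set beside these genes. It comprises 25 genes, BBX1 to BBX25, whose proteins carry 2 B-boxes or a B-box with a CCT domain, and CONSTANS is among them. A peak was assigned to 0 of the 25 in each of the 3 lists. The shares over all 27444 protein-coding genes were low as well: 0.849% (DMSO), 2.27% (tunicamycin) and 1.52% (tunicamycin-specific). With shares this low, a set of 25 genes can readily hold none, so nothing particular to these genes is read from the 0. BBX21, the binding partner of BBX32, was among the genes without a peak, as were BBX24 and BBX25. The protein-coding gene next to BBX18 in gene order, AT2G21300, had a tunicamycin peak (score 2.83, rank 161 of 767). The difference between 3 of 7 and 0 of 25 was not tested, since the 7 genes were grouped with their peaks known.

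A list of 22 genes of light signalling also took in TPL and EMF1, which are linked to it here as partners of B-box proteins. These were the 2 genes of the list with a peak. TOPLESS (TPL, AT1G15750), the co-repressor that BBX30 and BBX31 contact, had a peak in both treatments. The DMSO peak covered chr1:5420932-5421822 with a score of 2.76 at rank 215 of 320, and the tunicamycin peak covered chr1:5420795-5421764 with a score of 2.59 at rank 280 of 767. These overlapped by 833 bp. EMF1 (AT5G11530), a repressor of flowering and the protein after which BBX32 was also named EMF1-interacting protein, had a tunicamycin peak at chr5:3694945-3695988. Its score was 2.34 at rank 509 of 767, below the list median of 2.47, and no DMSO peak overlapped it. All these peaks, at TPL and at EMF1, were classed as promoter within 1 kb.

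The other 20 genes of the list had no peak. They included HY5 and its homologue HYH, COP1, the SPA genes of its complex, the phytochrome genes PHYA and PHYB, the cryptochrome genes CRY1 and CRY2, and the flowering gene FT. The list thus had peaks at 4.55% of its genes under DMSO and 9.09% under tunicamycin, beside the shares of 0.849% and 2.27% of all protein-coding genes. These peaks were those of TPL and EMF1 alone. The list was drawn up with earlier results known and is not complete. FKF1, which had a tunicamycin peak (score 2.52), is not in it. The percentages therefore describe this list and not light signalling as a whole. With counts of 1 and 2 genes, nothing particular to the list is read from this. Levels of RNA or protein of the B-box genes were not analysed here, so the peaks are not tied to a change in expression.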

How the data were processed

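Binding was measured by chromatin immunoprecipitation and sequencing with an antibody against GFP. Tools listed in the submitters' processing notes are MACS2 2.1.2, Bowtie 1.1.2, SAMtools 1.8, cutadapt 1.8.1 and FastQC 0.11.5, with the build TAIR10. The role of each tool, the calling threshold, the pooling of replicates and the use of input were not given in the sources used here. For each peak the authors deposited a score (a signal value, per the file headers), its position, its class and 1 gene. What the score is relative to is not stated, and it was used within a list only. Peaks were counted for a gene when the deposited files assigned them to it, and called shared with an overlap of 1 bp or more. Gene names, gene kinds and gene order came from a RefSeq table of TAIR10.1, in which 763 of the 780 gene identifiers matched; its coordinates were not set against peaks.

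The members, the list of 25 other B-box genes and the list of 22 light signalling genes (TPL and EMF1 included) were chosen with earlier results of these data known. Named genes were all members, list genes with a peak, the genes beside members, and the peaks next to a member in score. The light signalling genes listed as lacking a peak, and the peaks next to members along the chromosome or in gene order, were added. No test was run, so no p-value is given. Searches for the G-box in promoters and comparison of the proteins were planned and not run, as no sequences were used here. The overlap and ranking steps were tested on simulated data. Alternatives covered the overlap rule, the peak class, the strongest 50% of each list, adjacent genes, and ordering by width. Python 3.11.15, pandas 2.3.3, NumPy 2.4.6 and matplotlib 3.10.9 were used.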

Additional observations from a re-analysis of the deposited data

How the results depend on the processing

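Counts of members with a peak came to 1, 3 and 2 in the DMSO, tunicamycin and tunicamycin-specific lists with all peaks, with the promoter class of up to 1 kb alone, with the strongest 50% of each list, and with peaks of adjacent genes counted. In the strongest 320 tunicamycin peaks, a choice made after seeing the data to match the length of the DMSO list, 2 members were left, since BBX29 stood at rank 365. Sharing at BBX28 held with an overlap of 50% of the shorter peak, but with midpoints within 200 bp 0 members were shared, because its midpoints lay 251 bp apart. Without any DMSO overlap of 1 bp there were 2 members, as in the authors' specific list. Ordered by width, BBX28 stood at rank 18 (DMSO) and 97 (tunicamycin), BBX27 at 681 and BBX29 at 292. Genes of the light signalling list with a peak fell to 0 in the strongest 50% of the DMSO list (TPL left out). They fell to 1 in the tunicamycin list, both in its strongest 50% and in its strongest 320 peaks (EMF1 left out). Both of these settings can only lower a count, and that of the other B-box genes was 0 with all peaks; counting adjacent genes was run for the members alone. Leaving out a library was not run, since the lists give no values per library. No paired analysis was possible because the lists carry no replicate values. The search for the G-box or its ACGT core was not run for want of sequence. Depth is unknown, so how far it limits the shorter DMSO list could not be measured.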
